A study of Mus musculus with 29 samples.

Results

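The caveolae genes examined were Cav1 and Cav2 (caveolins), Cavin1, Cavin2 and Cavin3 (cavins), and Ehd2, an ATPase of the caveola neck. They were chosen by name as the structural genes of caveolae, and all 6 were found among the 11959 genes of the count table. The RNA came from 3T3-L1, a line of mouse fibroblasts that turn into white fat cells in culture. All cells received either 10 µM KDM5-C70 (C70), an inhibitor of the KDM5 histone demethylases, or DMSO (vehicle), from full confluence at day -2 until day 0. Preadipocyte medium was used up to day 0, differentiation medium from day 0 to day 2 and adipocyte medium afterward, and no group was treated with C70 after day 0. The 29 samples formed 8 groups, 1 for each treatment at each of days 0, 1, 2 and 7. Vehicle groups held 3 replicates, except 4 on the last day, and all C70 groups held 4. All samples come from 1 cell line. The labels do not say that replicates were separate cultures, so P values measure the spread between these samples.

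Caveolae are small flask-shaped pits of the plasma membrane that are plentiful in adipocytes, where they hold much of the cell surface. Caveolins are hairpin proteins that sit in the inner leaflet of the membrane. Cavins are cytosolic proteins that trimerize and coat the caveolin-rich membrane, and EHD2 forms rings at the neck that keep a caveola at the surface. CAV1 and CAVIN1 are each needed for caveolae to form outside muscle. CAV2 depends on CAV1 to leave the Golgi, CAVIN2 and CAVIN3 join complexes built on CAVIN1, and loss of CAV1 or CAVIN1 causes lipodystrophy.

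Total counts per sample ranged from 16320275 to 24037170. Levels are given as CPM, which are counts scaled to a common library total after correction by the trimmed mean of M values, and changes as log2 ratios with their standard error (SE). Genes called differentially expressed (DEGs) had an adjusted P value below 0.05 in edgeR's quasi-likelihood test and a log2 ratio beyond 0.32 in either direction, the fold change threshold. Day 7 vehicle replicate 1 stood apart from the other replicates of its group, with a chi-square per degree of freedom of 39.8 to 46.7 in its 3 pairs, against at most 13.9 in any other pair of replicates. Results at day 7 are therefore also given without it where a value moved by over 0.1 on the log2 scale. The labelled cell type was checked by markers. The summed level of 8 adipocyte markers (Adipoq, Fabp4, Plin1, Cidec, Lipe, Pparg, Cebpa and Lpl) was 1300 to 1424 CPM in day 0 vehicle and 23823 to 27921 CPM in day 7 vehicle samples. For 7 preadipocyte or fibroblast markers it was 20406 to 21081 CPM and 2219 to 2906 CPM. None of 6 endothelial markers is among the genes of the table, and of 6 muscle and 6 macrophage markers only Des and Cd68 are. In bulk RNA, fewer cells of a type and less RNA per cell cannot be told apart.

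Cav2 (ENSMUSG00000000058) and Cav1 (ENSMUSG00000007655) lie side by side on the plus strand of chromosome 6, at 17281185 to 17289115 and 17306335 to 17341452 (GRCm38), with 17220 bases between them. Cavin1 (ENSMUSG00000004044) is on the minus strand of chromosome 11 at 100956733 to 100970887. Cavin2 (ENSMUSG00000045954) is on the plus strand of chromosome 1 at 51289126 to 51302960. Cavin3 (ENSMUSG00000037060, 105480083 to 105482300) and Ehd2 (ENSMUSG00000074364, 15946958 to 15967567) are both on the minus strand of chromosome 7. Antisense transcripts are annotated across Cav1 and Cav2 (Gm15581) and Cavin2 (9330175M20Rik), and Gm45667 on the opposite strand overlaps Cavin3. The libraries were strand-specific, but the use of strand in counting is not given in the sources used here.

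Start regions of 3 genes are shown because these genes had different time courses in vehicle cells: Cav1 and Cav2 fell before they rose, and Cavin2 rose at every step. Each window runs from 250 bases before the annotated start to 50 after it, 5′ to 3′ on the gene's own strand (RefSeq, GRCm38.p6), and matches to the motifs searched are in capitals.
Cav2, chr6:17280935-17281234, plus strand: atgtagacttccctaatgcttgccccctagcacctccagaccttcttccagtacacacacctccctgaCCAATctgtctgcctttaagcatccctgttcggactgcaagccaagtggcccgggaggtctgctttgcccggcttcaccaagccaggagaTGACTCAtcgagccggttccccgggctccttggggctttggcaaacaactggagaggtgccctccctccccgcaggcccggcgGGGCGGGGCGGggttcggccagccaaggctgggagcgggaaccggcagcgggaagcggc
Cav1, chr6:17306085-17306384, plus strand: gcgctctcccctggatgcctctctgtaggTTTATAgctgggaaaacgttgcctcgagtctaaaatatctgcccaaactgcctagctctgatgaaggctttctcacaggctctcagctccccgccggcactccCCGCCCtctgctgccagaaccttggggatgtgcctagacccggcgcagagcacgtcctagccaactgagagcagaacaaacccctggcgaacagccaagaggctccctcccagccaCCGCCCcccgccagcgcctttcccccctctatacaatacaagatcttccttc
Cavin2, chr1:51288876-51289175, plus strand: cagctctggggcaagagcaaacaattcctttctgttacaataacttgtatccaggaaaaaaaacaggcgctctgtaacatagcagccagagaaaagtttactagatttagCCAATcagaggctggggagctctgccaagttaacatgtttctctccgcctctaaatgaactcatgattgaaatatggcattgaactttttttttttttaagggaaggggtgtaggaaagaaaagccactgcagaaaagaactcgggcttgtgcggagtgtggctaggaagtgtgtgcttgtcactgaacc
Windows were found for 5 of the 6 genes, all but Cavin3. Both strands were searched for the GC box as GGGCGG, for the CCAAT box by those letters and for the TATA box as TATAAA. The E-box was searched as CACGTG, the sterol response element core as CACCCCAC, the cyclic AMP response element as TGACGTCA and the AP-1 site as TGACTCA. The Cav2 window held 2 GC boxes that share bases, at -9 and -4 from the start, an AP-1 match at -92 and a CCAAT box at -182. The Cav1 window held 2 GC boxes, at -118 and -2, and the TATA letters in reverse at -221, and a window at a second annotated Cav1 start held no match. Only a CCAAT box, at -140, was present in the Cavin2 window. GC boxes and CCAAT boxes were in the Cavin1 and Ehd2 windows too, so that 4 of the 5 genes had each of these. Of all 32851 mouse windows of this length, 35.7% held a GC box, 37.4% a CCAAT box and 5.20% an AP-1 match. The Cavin2 window had 4 CpG dinucleotides, against 13 for Cav1, 16 for Cav2, 17 for Cavin1 and 18 for Ehd2, and a median of 7 over all windows. A match is a description of the letters and not evidence of binding.

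To determine how caveolae genes change as 3T3-L1 cells differentiate, vehicle samples were compared across days. All 6 genes were higher at day 7 than at day 0, whereas 36.7% of all genes were DEGs in this direction and 36.7% were lower. The 6 had a median log2 ratio of 1.74, and that of all genes was 0.0083. The rise ranged from 1.45-fold for Cavin3 to 18.97-fold for Cavin2. The muscle marker Des (log2 ratio 3.12) and the macrophage marker Cd68 (0.89) were also called higher at day 7 than at day 0. The part of these markers in the caveolae genes was not tested. The 6 genes did not follow the same course: 3 fell in the first day, and Ehd2 passed its maximum by day 7.

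**Figure D1:**
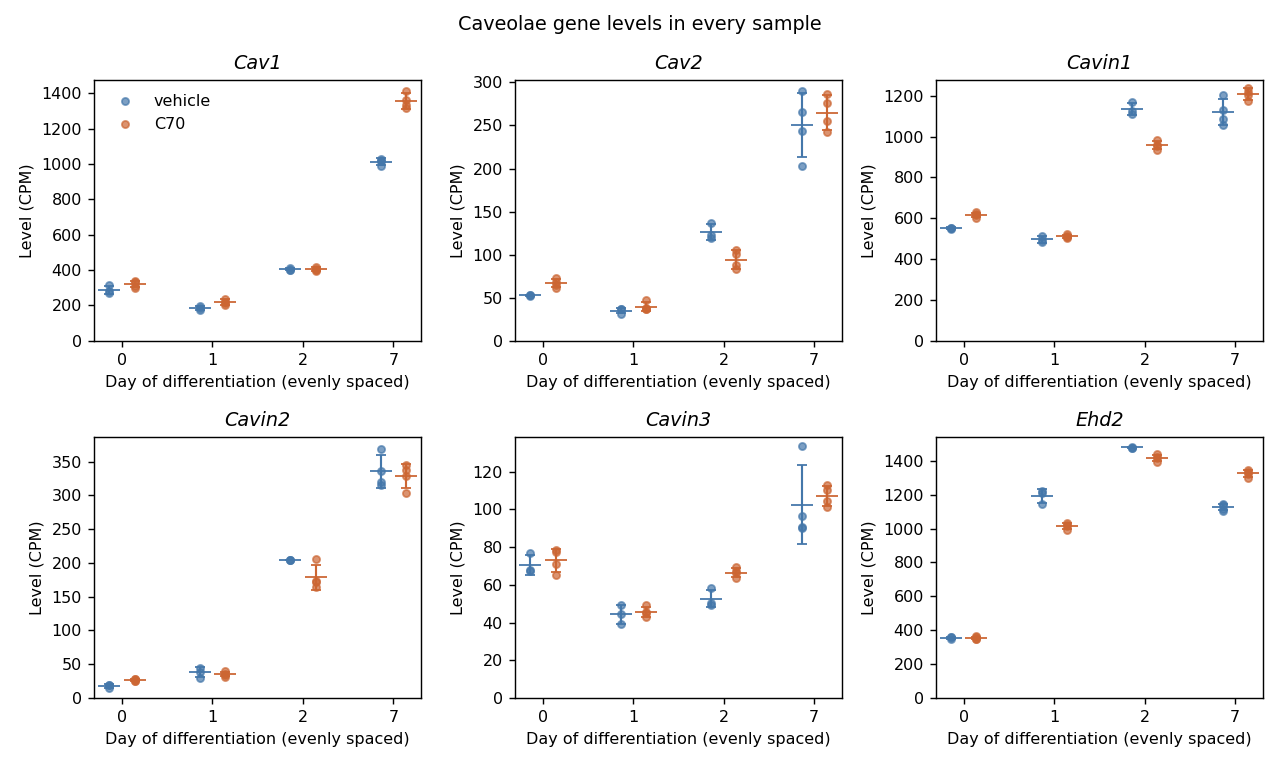
CPM of the 6 caveolae genes in each of the 29 samples (points) by day of differentiation, for vehicle and C70, with the group mean (horizontal mark) and SD (error bar); days are evenly spaced and each vertical axis starts at 0. All genes were higher at day 7 than at day 0 in both treatments. Cav1 and Ehd2 separated the treatments at day 7, Ehd2 by less than the fold change threshold. For Cavin3 at day 7, 1 vehicle sample stood above the others.

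Cav1, the main structural protein of the caveola coat in these cells, was measured at 280.4, 314 and 268 CPM in the 3 day 0 vehicle samples and 1029, 1019.8, 988 and 1017 CPM in the 4 at day 7. The groups did not overlap, and the log2 ratio was 1.82 (SE 0.0578, adjusted P = 4.28e-23). In between, Cav1 fell from 288 ± 23.8 CPM (SD, n = 3) to 186 ± 13.1 CPM (SD, n = 3) at day 1, a log2 ratio of -0.63 (SE 0.0594, adjusted P = 7.3e-11). Its 2 later steps were rises, to 405 ± 6.66 CPM at day 2 (log2 ratio 1.13, adjusted P = 2.08e-16) and to 1014 ± 17.9 CPM at day 7 (1.32, adjusted P = 4.78e-19). Cav2, its partner in mixed caveolin oligomers, had the same down and up course at a lower level. It was at 52.7, 53.1 and 52.4 CPM in day 0 vehicle samples and 203, 290.1, 265 and 244 CPM in day 7 vehicle samples. All day 7 samples were above all day 0 samples, with a log2 ratio of 2.25 (SE 0.104, adjusted P = 8.46e-19). Cav2 fell to 35.1 ± 3.20 CPM (SD, n = 3) at day 1 (-0.59, adjusted P = 3.24e-05), and its largest step was the rise to 126 ± 9.27 CPM (SD, n = 3) at day 2, a log2 ratio of 1.84 (SE 0.111, adjusted P = 3.99e-15). The last step to day 7 was 0.99 (adjusted P = 1.99e-10), and 1.10 without day 7 vehicle replicate 1.

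Cavin1 (Ptrf), the cavin that caveola formation requires, rose in a single step. Its vehicle samples were at 554, 553 and 546 CPM on day 0, 1112, 1126 and 1167 CPM on day 2 and 1201, 1086, 1058 and 1131 CPM on day 7. Day 2 and day 7 samples overlapped, and the change between them was -0.021 on the log2 scale (SE 0.0398, adjusted P = 0.654). Its rise took place between day 1 and day 2, with a log2 ratio of 1.19 (SE 0.0432, adjusted P = 2.1e-20). The decrease from day 0 to day 1, -0.15 (adjusted P = 0.00287), was under the fold change threshold. Cavin2 (Sdpr), which bends membrane, started as the lowest of the 6 genes. It was at 18.6, 14.7 and 19.6 CPM in day 0 vehicle samples and 316, 369, 337 and 321 CPM at day 7, a log2 ratio of 4.25 (SE 0.112, adjusted P = 3.63e-25). It was the only one of the 6 genes called higher at each step, with log2 ratios of 1.10 to day 1 (adjusted P = 7.52e-10), 2.43 to day 2 (adjusted P = 1.31e-18) and 0.72 to day 7 (adjusted P = 3.19e-08). The 3 samples at day 2 were within 1 CPM of each other, at 204, 204 and 205 CPM. Cavin3 (Prkcdbp), a protein kinase C delta binding protein, had the smallest change of the 6 genes between day 0 and day 7. Its vehicle samples were at 67.7, 76.7 and 67.3 CPM on day 0 and 134, 90.4, 90.0 and 96.3 CPM on day 7. The highest of these was day 7 vehicle replicate 1, and all 4 lay above the day 0 samples. The log2 ratio from day 0 to day 7 was 0.54 (SE 0.0975, adjusted P = 8.58e-06), and 0.39 (adjusted P = 3.41e-06) without that replicate. Cavin3 fell at day 1 (-0.67, adjusted P = 1.98e-06) and rose from day 2 to day 7 (0.96, adjusted P = 6.44e-10, and 0.83 without day 7 vehicle replicate 1). Its step from day 1 to day 2, 0.25 (adjusted P = 0.0471), was under the fold change threshold, but was called without day 1 vehicle replicate 2 (0.34).

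Ehd2 rose first and then fell back. Its vehicle samples were at 359, 357 and 345 CPM on day 0 and 1146, 1221 and 1209 CPM on day 1. This rise of 3.37-fold, 1.75 (SE 0.0382, adjusted P = 2.25e-26) on the log2 scale, took place in the step in which Cav1, Cav2 and Cavin3 fell. Ehd2 was highest at day 2, at 1479 ± 3.97 CPM (SD, n = 3), and lower at day 7, at 1125 ± 18.3 CPM (SD, n = 4), with a log2 ratio of -0.39 (SE 0.0344, adjusted P = 1.43e-11). The day 1 to day 2 step of 0.31 (adjusted P = 1.4e-08) was just under the fold change threshold, and was called without day 1 vehicle replicate 2 or 3 (0.33 and 0.32). By step, therefore, 2 caveolae genes were higher and 3 lower at day 1 than at day 0, beside 26.2% and 27.9% of all genes. From day 1 to day 2, 4 were higher, beside 22.3% of all genes, and none was lower, beside 2630 of the 11959 genes. From day 2 to day 7, 4 were higher and 1 lower, beside 26.6% and 26.7% of all genes.

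**Figure D2:**
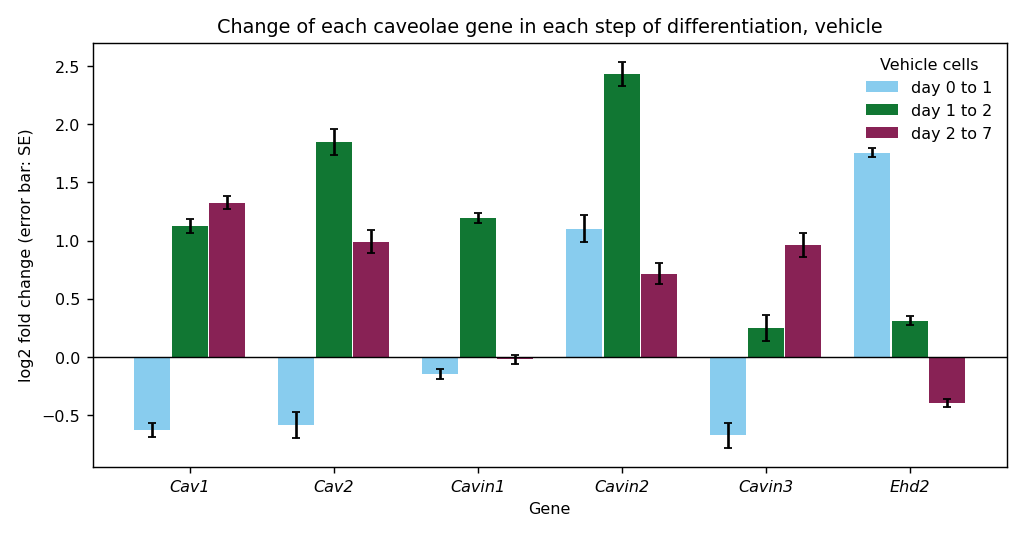
Log2 fold change of each caveolae gene in vehicle cells from day 0 to 1, day 1 to 2 and day 2 to 7 (bars), with the standard error. Cav1, Cav2 and Cavin3 fell in the first step while Cavin2 and Ehd2 rose by 1.10 and 1.75, and Cavin2 had the largest rise of any step, 2.43.

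Levels of different genes were compared per kilobase of union exon length (RPKM). In day 0 vehicle samples the order was Cavin1 at 154, Cav1 at 83.5, Ehd2 at 69.1, Cavin3 at 42.5, Cav2 at 15.8 and Cavin2 at 5.77 RPKM, and no neighbours in this order overlapped. In day 1 vehicle samples Ehd2 was highest at 233 RPKM, and Cavin2 (12.4) and Cav2 (10.5) overlapped. By day 7 the vehicle order was Cavin1 at 312, Cav1 at 294, Ehd2 at 219.8, Cavin2 at 109.9, Cav2 at 75.1 and Cavin3 at 61.7 RPKM. The ranges of Cavin1 and Cav1 overlapped there, as did those of Cav2 and Cavin3. Without replicate 1, Cav2 (73.2 to 87.0 RPKM) lay above Cavin3 (54.1 to 57.9 RPKM). Cavin2 thus moved from the lowest place to the fourth, and Cavin3 from the fourth to the lowest. In day 7 C70 samples Cav1 was the highest at 394 RPKM, above Cavin1 at 337, and no neighbours overlapped. The place of Cav1 depended on the length used. By the longest transcript, Cav1 was above Cavin1 in day 7 samples of both treatments, at 369 against 321 RPKM with vehicle and 494 against 346 RPKM with C70, with no overlap. By this length Cav2 (12.8) also came before Cavin2 (12.4) in day 1 vehicle samples, and their ranges overlapped at day 7 in both treatments.

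**Figure D3:**
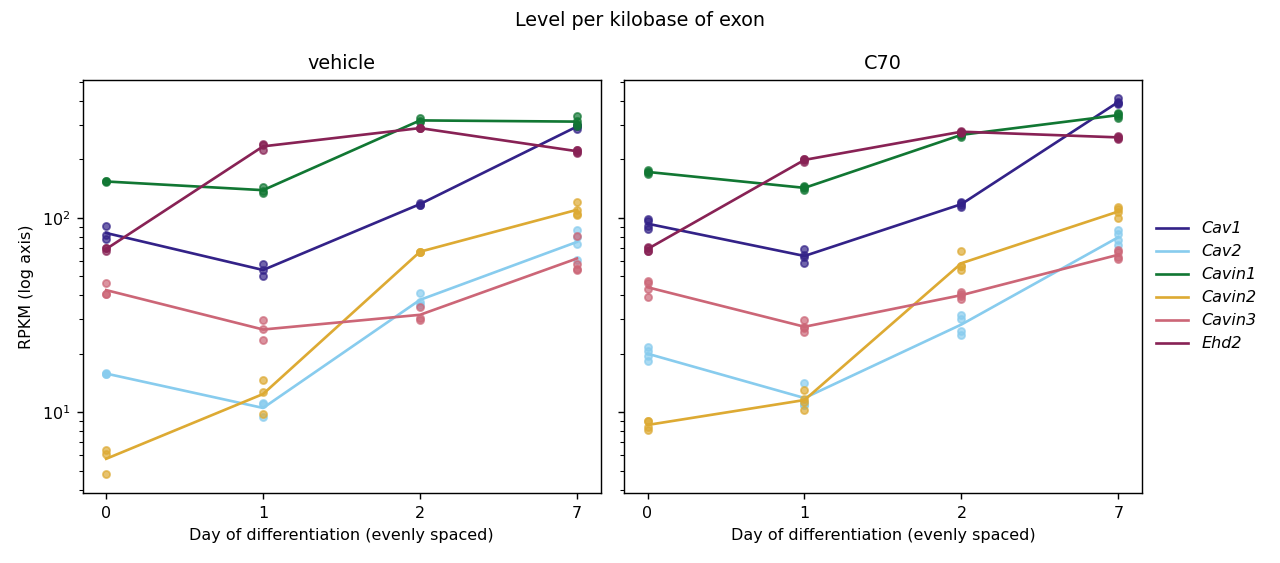
RPKM (by union exon length) of the 6 caveolae genes in each sample (points) and group means (lines) by day in vehicle and C70 cells, on a log axis; days are evenly spaced. At day 7 Cav1 (294 RPKM) and Cavin1 (312 RPKM) overlap in vehicle, while Cav1 (394 RPKM) lies above Cavin1 (337 RPKM) with C70; by the longest transcript Cav1 is higher in both.

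C70 and vehicle samples were next compared at each time point. At day 0, the end of the 2-day treatment, Cavin2 and Cav2 were higher with C70, beside 5.89% of all genes called higher, and no caveolae gene was lower, beside 3.09%. Cavin2 was at 27.4, 25.5, 24.7 and 27.6 CPM in the 4 C70 samples, all above the vehicle samples given before, with a log2 ratio of 0.57 (SE 0.112, adjusted P = 0.000348). Cav2 was at 68.6, 61.1, 64.9 and 72.3 CPM in C70 samples, also all above vehicle, with a log2 ratio of 0.34 (SE 0.102, adjusted P = 0.017). The Cav2 change was close to the fold change threshold. It was not called when day 0 vehicle replicate 1 (0.34, adjusted P = 0.0558) or 3 (0.34, adjusted P = 0.0542) or C70 replicate 4 (0.30) was left out. After quantile normalization it was just under the fold change threshold. Cav1 (0.16 (adjusted P = 0.0396)) and Cavin1 (0.16 (adjusted P = 0.00376)) passed the P value threshold only. Cavin3 and Ehd2 differed by 0.049 (SE 0.0976) and 0.00024 (SE 0.0350) on the log2 scale, and the Cavin3 value ran from 0.014 to 0.11 when 1 library was left out. At this time point the summed adipocyte markers were at 1484 to 1537 CPM and preadipocyte markers at 20012 to 21973 CPM with C70. Of the adipocyte markers Cebpa was called higher and Pparg and Fabp4 lower, and of the preadipocyte markers Ly6a and Thy1 were called higher. Cd68, a lysosomal protein used as a macrophage marker, was at 18.7 to 19.8 CPM with C70 and 1.1 to 1.7 CPM with vehicle, while the other 5 macrophage markers are not among the genes of the table. The muscle marker Des was at 8.69 to 10.0 CPM and 4.18 to 5.61 CPM. The part of these in the caveolae genes was not tested.

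At day 1, no caveolae gene was a DEG by edgeR, limma or DESeq2, beside 13.6% of all genes called higher and 7.80% lower. After quantile normalization, 50.9% of all DEGs at this day were higher, against 63.6% here. At an unadjusted P under 0.05 by edgeR there were 2, Cav1 and Ehd2, beside 48.2% of all genes. Both also passed the adjusted P value threshold. Cav1 was at 238, 221, 202 and 216 CPM with C70, above every vehicle sample (198, 186 and 172 CPM), a log2 ratio of 0.24 (SE 0.0559, adjusted P = 0.000937). Ehd2 was at 991, 1032, 1016 and 1022 CPM, below every vehicle sample, a log2 ratio of -0.23 (SE 0.0345, adjusted P = 2.83e-06). Cav2, Cavin1, Cavin2 and Cavin3 overlapped between treatments, and their log2 ratios lay between -0.11 and 0.17. The latter value, that of Cav2, was 0.076 without day 1 C70 replicate 1 and 0.096 without day 1 vehicle replicate 3. The summed adipocyte markers were at 3335 to 3463 CPM with C70 and 5271 to 5557 CPM with vehicle, and 6 of 8 were called lower. For preadipocyte markers the sums were 9056 to 9989 CPM and 8191 to 9088 CPM, with 4 of 7 called higher and 1 lower. Cd68 (log2 ratio 2.90) and Des (1.51) were called higher. The part of these markers in the Cav1 and Ehd2 values was not tested.

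At day 2, Cav2 was lower and Cavin3 higher with C70, beside 13.6% of all genes called lower and 16.9% higher. After quantile normalization the balance of all genes turned, with 16.4% lower and 15.1% higher. Cav2 was at 100.9, 105, 87.5 and 83.3 CPM with C70 and 119, 123 and 137 CPM with vehicle. All C70 samples lay below all vehicle samples, opposite to day 0, and the log2 ratio was -0.42 (SE 0.0969, adjusted P = 0.00055). Cavin3 was at 63.5, 67.2, 69.4 and 66.1 CPM with C70 and 50.5, 49.5 and 58.1 CPM with vehicle. The groups did not overlap, and the log2 ratio was 0.34 (SE 0.101, adjusted P = 0.00585). Cavin3 was not called when vehicle replicate 1 (0.31) or 2 (0.29) or C70 replicate 3 (0.32) of that day was left out. Cavin1 was lower in all 4 C70 samples, at 934, 984, 959 and 953 CPM, with a log2 ratio of -0.25 (SE 0.0397, adjusted P = 5.01e-06) that did not reach the fold change threshold. Cav1 differed by -0.00082 on the log2 scale (SE 0.0548), and Cavin2 by -0.20 (adjusted P = 0.0679). Ehd2 was at 1395, 1418, 1437 and 1419 CPM with C70 and 1478, 1484 and 1477 CPM with vehicle, a difference of -0.062 (adjusted P = 0.138). Adipocyte and preadipocyte markers also moved at this time point. The 8 adipocyte markers summed to 13432 to 14967 CPM with C70 and 23404 to 24308 CPM with vehicle, and 6 of them were called lower. The 7 preadipocyte markers summed to 5877 to 6250 CPM and 3442 to 3515 CPM, and 6 of them were called higher. Cd68 (2.06) and Des (0.47) were called higher too. The part of these markers in the Cav2 and Cavin3 values was not tested.

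At day 7, a week after the end of treatment, Cav1 was higher with C70 and no other caveolae gene was a DEG, beside 14.3% of all genes called higher and 4.85% lower. After quantile normalization 60.5% of all DEGs at this day were higher, against 74.6% here. Cav1 was at 1362, 1415, 1316 and 1333 CPM in the C70 samples, all above the vehicle samples at 1029, 1019.8, 988 and 1017 CPM. The rise was 1.34-fold, or 0.42 (SE 0.0503, adjusted P = 6.04e-08) on the log2 scale, and 0.43 (adjusted P = 1.5e-08) without day 7 vehicle replicate 1. Cav1 remained called when any 1 library was left out, with values between 0.40 and 0.43. Ehd2 was at 1297, 1334, 1323 and 1346 CPM with C70 and 1106, 1113, 1143 and 1138 CPM with vehicle. The groups did not overlap, but the log2 ratio of 0.24 (SE 0.032, adjusted P = 5.86e-07) was under the fold change threshold. Cavin1 (0.11 (adjusted P = 0.0158)) passed the P value threshold only, and Cav2 (0.08 (adjusted P = 0.489)), Cavin2 (-0.029 (adjusted P = 0.807)) and Cavin3 (0.066 (adjusted P = 0.585)) did not pass it. Without day 7 vehicle replicate 1, Cavin1 was at 0.15 (adjusted P = 0.000502), Cavin3 at 0.22 (adjusted P = 0.00447) and Cav2 at -0.0026 (adjusted P = 0.983). Adipocyte markers summed to 25831 to 28226 CPM with C70 at this day, and 1 of 8, Adipoq, was called higher. Preadipocyte markers summed to 4746 to 5478 CPM, and 7 of 7 were called higher. The part of these markers in the Cav1 value was not tested.

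**Figure D4:**
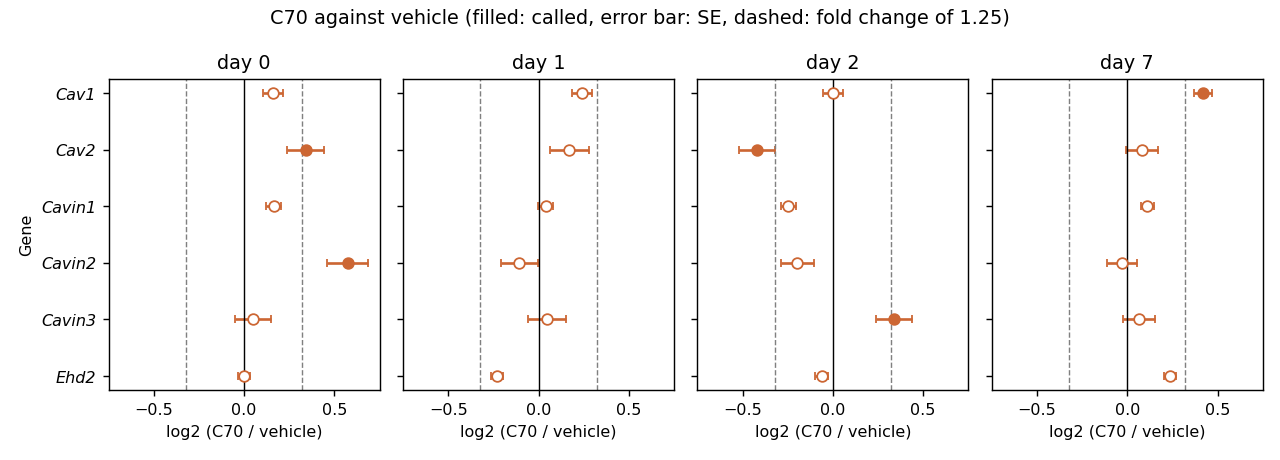
Log2 fold change of C70 against vehicle for each caveolae gene at days 0, 1, 2 and 7 with its standard error; filled points passed both thresholds and dashed lines mark the fold change threshold. Filled points are Cav2 and Cavin2 at day 0, Cav2 (lower) and Cavin3 at day 2, and Cav1 at day 7.

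The difference of the C70 effect between successive time points was tested by interaction contrasts. Between day 0 and day 1, the effect on Cavin2 decreased by 0.68 on the log2 scale (SE 0.151, adjusted P = 0.00152), and this was the only caveolae gene called, beside 5.23% of all genes with a lower effect. Ehd2 (-0.23 (adjusted P = 0.000946)) passed the P value threshold only in this step. Between day 1 and day 2, the effect on Cav2 decreased by 0.59 (SE 0.146, adjusted P = 0.00377), beside 6.49% of all genes. Cavin1 (-0.29 (adjusted P = 0.000418)), Cav1 (-0.24 (adjusted P = 0.0278)) and Ehd2 (0.17 (adjusted P = 0.013)) passed the P value threshold only in this step. Cavin2 (-0.091 (adjusted P = 0.714)) and Cavin3 (0.29 (adjusted P = 0.167)) passed neither threshold. Ehd2 was called after quantile normalization (0.34). Between day 2 and day 7, the effects on Cav1 (0.42 (SE 0.0743, adjusted P = 5.38e-05)), Cav2 (0.50 (SE 0.130, adjusted P = 0.00377)) and Cavin1 (0.36 (SE 0.0542, adjusted P = 6.38e-06)) became more positive, beside 11.9% of all genes. Without day 7 vehicle replicate 1 these were 0.42, 0.41 and 0.39, and all were still called. After quantile normalization Cavin1 was at 0.23 and was not called. Ehd2 moved in the same direction (0.30 (adjusted P = 1.17e-05)) under the fold change threshold. Cavin2 (0.17 (adjusted P = 0.322)) and Cavin3 (-0.27 (SE 0.134, adjusted P = 0.129)) passed neither threshold. Without day 7 vehicle replicate 1 the Cavin3 value was -0.13. In C70 cells all 6 genes were again higher at day 7 than at day 0, beside 35.9% of all genes. The log2 ratios there were 2.08 for Cav1, 1.99 for Cav2, 0.97 for Cavin1, 3.64 for Cavin2, 0.56 for Cavin3 and 1.91 for Ehd2, each with an adjusted P value of 1.42e-06 or less. They share day 0 and day 7 C70 samples with the comparisons before.

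Genes that act with caveolae were examined as lists. Of 11 partners of the caveola coat and neck, 8 are in the table (all but Cav3, Cavin4 and Pacsin1). In vehicle cells, 2 of the 8 were higher and 4 lower at day 7 than at day 0 (median log2 ratio -0.24), where 36.7% of all genes were called in each direction. Among the EHD paralogs of Ehd2, which act mainly in endosome recycling, Ehd4 fell (-1.38, adjusted P = 1.54e-18), Ehd3 rose (0.59, adjusted P = 4.22e-08) and Ehd1 was under the fold change threshold (0.17). Pacsin2, a membrane-bending protein of caveola necks, fell by 0.55 (adjusted P = 9.09e-13), and its muscle-enriched paralog Pacsin3 rose (0.81, adjusted P = 7.91e-13). Flna, the filamin that ties caveolae to actin, fell (-2.46, adjusted P = 2.4e-24), as did Ehbp1, an EHD-binding protein (-1.82, adjusted P = 1.39e-21). Dnm2, the dynamin that cuts vesicles from the membrane, was at 0.064 (SE 0.0351).

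C70 changed Ehd1 and Ehd3 in opposite directions. At day 2, Ehd3 was at 9.91 ± 1.03 CPM (SD, n = 3) with vehicle and 31.1 ± 1.97 CPM (SD, n = 4) with C70, a log2 ratio of 1.65 (SE 0.0808, adjusted P = 1.22e-16). Ehd1 was at 186 ± 2.92 CPM (SD, n = 3) and 109 ± 2.10 CPM (SD, n = 4), a log2 ratio of -0.78 (SE 0.0548, adjusted P = 5.05e-13). Both were also called at day 1, at 1.05 and -0.36. Flna was higher with C70 at days 1, 2 and 7, by 0.48, 0.87 and 0.83 on the log2 scale, and the other 5 partners were not called at any day. Of the 8 partners, 2 were thus higher and 1 lower at days 1 and 2, and 1 was higher at day 7, beside 13.6%, 16.9% and 14.3% of all genes higher and 7.80%, 13.6% and 4.85% lower. Day 0 gave no call among the partners by edgeR, limma or DESeq2, beside 5.89% of all genes higher and 3.09% lower by edgeR. At an unadjusted P under 0.05 by edgeR there were 6 of 8, beside 30.8% of all genes.

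Other lists set the coat genes in context. Among flotillin raft genes, Stom, which encodes stomatin, was higher with C70 at every time point, by 0.46 to 0.79 on the log2 scale. Stom also rose with differentiation (1.72), whereas Flot1 and Flot2 were called neither between treatments nor between day 0 and day 7 vehicle. Among 9 receptors, transporters and kinases found in adipocyte caveolae, 4 were higher and 5 lower at day 7 than at day 0 in vehicle cells (median -0.41), against 36.7% of all genes each way. The fatty acid carrier Cd36 (9.38), the insulin-responsive glucose transporter Slc2a4 (10.32) and the lipoprotein receptor Scarb1 (2.88) were among those that rose (Slc2a4 from 0.196 CPM, a few reads per sample), and all 3 were lower with C70 at day 2, at -0.43, -1.22 and -1.19. Other days differed, as Scarb1 was called higher at day 0 (0.40) and lower at day 1 (-0.33), and Cd36 lower at day 1 (-0.87) and higher at day 7 (0.33). In all, C70 raised 1, 0, 1 and 2 of the 9 and lowered 0, 2, 4 and 0 of them on days 0, 1, 2 and 7. The shares of all genes raised on these days were 5.89%, 13.6%, 16.9% and 14.3%, and of those lowered 3.09%, 7.80%, 13.6% and 4.85%. Of 20 genes of clathrin coats and adaptors, the other main route of uptake, 12 fell and 2 rose with differentiation in vehicle cells (median -0.58), beside the same 36.7% each way. C70 raised 1 of the 20 at days 1 and 2, Dnm1 (0.50 and 0.97), and 2 of the 20 at day 7, Dnm1 (0.70) and Itsn1 (0.33). Beside these stand 13.6%, 16.9% and 14.3% of all genes, and the difference from these shares was not tested. At day 0, C70 changed none of the 20 by edgeR, limma or DESeq2, beside 5.89% of all genes higher and 3.09% lower by edgeR. At an unadjusted P under 0.05 by edgeR there were 5 of 20, beside 30.8% of all genes. Of 10 genes controlled by YAP/TAZ or SRF, which respond to cell tension, 8 fell and 0 rose with differentiation (median -1.60), beside the same 36.7%. With C70, 2, 5, 5 and 2 of the 10 were higher at days 0, 1, 2 and 7, beside the shares of all genes just given, and 1 was lower, at day 2. The day 7 count of 2 is near the share of 14.3%. Examples at day 2 were Tagln (2.40), Ccn1 (0.85) and Axl (0.86). Median log2 ratios of all genes in these comparisons lay between -0.0060 and 0.0083. Kdm5a, Kdm5b and Kdm5c, the targets of the inhibitor in the table, differed between treatments by at most 0.19 on the log2 scale.

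Cav1 and Cav2 were set beside the other genes within 500 kb. The table holds 4 of these, namely Tes (175 kb away), Met (122 kb), Capza2 (295 kb) and St7 (351 kb). Tes, a focal adhesion protein, went the other way, with a log2 ratio of -3.89 from day 0 to day 7 in vehicle cells (adjusted P = 7.43e-23). Met, the receptor of hepatocyte growth factor, fell at day 1 (-1.10) and rose at day 2 (1.85), the same directions as Cav1 and Cav2, and did not pass the fold change threshold after that (-0.18). St7 also fell at day 1 (-0.51) and rose from day 2 to day 7 (0.82), and Capza2, which caps actin filaments, was not called in any comparison. With C70, Met was lower at days 1 and 2 (-0.63 and -0.83) and Tes higher (0.59 and 1.00), while Cav1 was not called and Cav2 was lower at day 2 (-0.42). At day 7, none of the 4 was called, and Cav1 was (0.42).

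**Figure D5:**
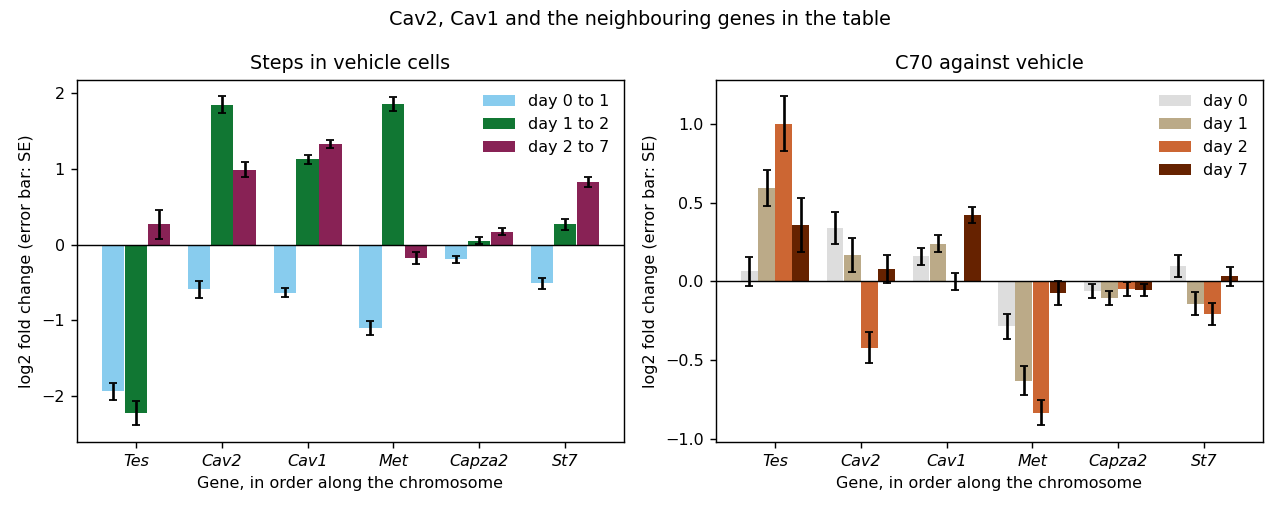
Log2 fold change with SE of Cav2, Cav1 and the 4 neighbouring genes in the table, in each step of vehicle cells (left) and for C70 against vehicle at each day (right). At day 7 the change of Cav1 with C70 is 0.42, and at day 2 Cav2 and Met are lower (-0.42 and -0.83) and Tes higher (1.00).

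Over the 8 group means, the Pearson correlation of log2 CPM was 0.974 between Cav1 and Cav2, 0.945 between Cavin1 and Cavin2 and 0.942 between Cav2 and Cavin1. It was lowest between Cavin3 and Ehd2, at -0.099, and 0.312 between Cav1 and Ehd2. These are descriptions over 8 points that share the days of differentiation. Among the 5979 genes above the median mean level, the most alike to each were Phldb1 for Cav1 (0.989), Rora for Cav2 (0.994), Kank1 for Cavin1 (0.992), Slc1a5 for Cavin2 (0.997), Bag5 for Cavin3 (0.983) and Plcb1 for Ehd2 (0.996). The next in order were Pygb and Snx10 for Cav1, Slc12a7 and Cpped1 for Cav2, Atp2b4 and Pla2g16 for Cavin1, Cab39 and Polg for Cavin2, Blvrb and Gstm1 for Cavin3, and Tspan14 and Psmc5 for Ehd2, with correlations from 0.980 to 0.996.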

How the data were processed

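The authors aligned strand-specific reads of 29 libraries with STAR 2.7.2a to GRCm38, per the labels, and deposited a table of counts for 11959 genes. Its name calls the counts normalized, but the values are whole numbers with unequal totals, and they were treated as raw counts. The counting program, its use of strand and the filter on low genes are not given in the sources used here. No gene was filtered further, and all matched a symbol. In R 4.3.3, edgeR 4.0.16 was used with trimmed mean of M values factors (0.898 to 1.08) and 8 group means in one quasi-likelihood fit, two-sided. Within each comparison, the Benjamini-Hochberg adjustment covered every gene. The common biological coefficient of variation was 0.0594. RPKM used union exon length (GENCODE M21). On simulated data, 196 of 200 genes changed 2-fold in day 7 C70 were recovered with 2 false calls. No other gene changed in that simulation, and recovery of changes near the fold change threshold was not tested. Replicate numbers did not pair samples (correlations from -0.20 to 0.21). Members, lists and tests were chosen with earlier results of these data known. The 6 members were named throughout; from each list, all caveola partners and up to 3 genes with the smallest adjusted P value per kind of comparison; also the 3 genes most alike to each member and the table's genes within 500 kb of Cav1 and Cav2. Alternatives were other thresholds, adjustment over families of comparisons, size factors by RLE, quantile normalization, limma 3.58.1, a prior count of 0.5, removal of the lowest 25% of genes, DESeq2 1.42.0, fits of the compared groups alone, a replicate block and leaving out each library. Python 3.11.15, pandas 2.3.3 and matplotlib 3.10.9 were used for tables and plots.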

Additional observations from a re-analysis of the deposited data

Results flagged for a closer look

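Among groups of 4 samples, 35 sets of values (the levels of the 6 genes and total counts) were tested for 1 sample far from the others, and 4 were found, where chance gives 1.75. Cav2 was at 47.4 CPM in day 1 C70 replicate 1, above the other 3 samples, and Cavin3 was at 133.8 CPM in day 7 vehicle replicate 1. The total count of day 0 C70 replicate 4 was 24037170 and that of day 7 vehicle replicate 3 was 21433580, each far from the rest of its group.

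The effect of C70 differed between time points, by the interaction test in edgeR, for 4 caveolae genes. From day 0 to 1, 13.9% of all genes were called in either direction. The shares were 13.8% from day 1 to 2 and 20.9% from day 2 to 7. The effect on Cavin2 was lower at day 1 than at day 0 (difference of -0.68 on the log2 scale), and that on Cav2 was lower at day 2 than at day 1 (-0.59). At day 7 the effect was higher than at day 2 for Cav2 (0.50), Cav1 (0.42) and Cavin1 (0.36). Cavin1 was not called there after quantile normalization (0.23).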

How the results depend on the processing

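Each of 72 results, a gene in a comparison, was recomputed under 12 alternatives and without each of 29 libraries, and 35 kept their direction and their side of the thresholds throughout. The fold change threshold decided most counts of caveolae genes called. On the adjusted P value alone, C70 counts were 4, 2, 3 and 3 for days 0, 1, 2 and 7, and 2 and 4 for the change in effect from day 0 to 1 and from day 1 to 2. The share of all genes at this threshold is not given here. At an unadjusted P under 0.05 by edgeR, 4, 2, 4 and 3 caveolae genes passed on days 0, 1, 2 and 7. Of all genes, 30.8%, 48.2%, 56.0% and 48.2% passed on these days. With a fold change over 1.5 the counts of caveolae genes called were 0 at days 0, 2 and 7 and 0 for the change from day 2 to 7. After quantile normalization the counts were 1 at day 0 and 2 for the change from day 1 to 2. No other count of calls moved by over 1.5 times except those here. With a replicate block and only the groups compared, the count at day 0 was 1, as Cav2 (0.29) fell under the fold change threshold, and the block over all groups gave 2. The paired fit changed no call of a gene otherwise. Leaving out 1 library gave 1 to 2 genes at day 0 and at day 2. All 11 results that turned direction were not called and near 0. The day 0 C70 value of Ehd2 became -0.00035 with RLE size factors, -0.045 after quantile normalization, -0.0034 without the lowest 25% of genes, -0.00028 with DESeq2, -0.0070 in a fit of the compared groups alone, -0.0051 with the replicate block and -0.014 with both. Quantile normalization gave -0.0044 for Cavin1 at day 1 and 0.020 for Ehd2 at day 2. The day 2 value of Cav1 became 0.026 after quantile normalization, 0.011 without the lowest genes, 0.0050 with the compared groups alone and 0.018 with these and the block. The change of the Cavin3 effect from day 0 to 1 (-0.0022) became 0.020, 0.0042 and 0.0043 with quantile normalization and limma at both prior counts, 0.021 without the lowest genes, 0.0022 with the compared groups alone and 0.0052 with these and the block. Without 1 library, C70 values ran from -0.018 to 0.011 for Ehd2 (day 0), from -0.25 to 0.034 for Cavin2 and from -0.037 to 0.13 for Cavin3 (day 1), from -0.015 to 0.015 for Cav1 (day 2), and from -0.0026 to 0.16 for Cav2 and -0.051 to 0.020 for Cavin2 (day 7). They ran from -0.037 to 0.0053 for Cavin1 in vehicle between days 2 and 7, from -0.085 to 0.084 for the change of the Cavin3 effect to day 1 and from -0.23 to 0.054 for that of Cavin2 to day 2. The cause of these changes was not tested. No caveolae gene was below 14.7 CPM in any sample, and 3 or 4 samples per group limit precision.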
